A study of Mus musculus with 6 samples.

Results

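Stem-like marrow progenitors are here the marrow cells with transcripts of 6 genes of hematopoietic stem cells and few transcripts of later granulocyte, red cell or platelet genes. They were 1601 of the 19522 marrow cells that passed the limits on depth and mitochondrial transcripts, and the whole series holds 28055 cells. Hematopoietic stem cells are rare and mostly quiescent cells that renew themselves in the marrow niche and give rise to every blood lineage, neutrophils included. Hlf and Mecom are transcription factors of such cells, Meis1 is a HOX cofactor, Mllt3 is a chromatin reader that maintains stem cells, Procr is the endothelial protein C receptor and Adgrg1 is an adhesion receptor (also called GPR56). With age, stem cells are known to become more numerous, to express P-selectin (Selp) and other genes of adhesion and stress, and to favour myeloid and platelet fates over lymphoid ones. After injury, cytokines and glucocorticoids can draw progenitors into making neutrophils in larger numbers.

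The study counted transcripts of single cells of wild-type mice by capture of 3′ ends in droplets (Chromium of 10x Genomics, where each molecule carries a unique molecular identifier, UMI). The 4 marrow groups were aged mice 24 h after an experimental stroke, made by middle cerebral artery occlusion, young mice 24 h after that occlusion, aged mice at steady state and young mice at steady state. Each group had 1 library, and the marrow cells of all 4 had been sorted to enrich Gr1+ and c-kit+ fractions. The sort thus bears on the share of any class, and the sources used here give neither the ages, the number of pooled mice nor a sham operation. The comparison of ages asks how stem-like cells of aged mice differ from those of young mice, and the comparison of contexts asks how they differ a day after stroke.

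A cell was a member if it had at least 500 UMIs, at most 10% mitochondrial UMIs and at least 4 UMIs in all of Hlf, Mecom, Procr, Adgrg1, Meis1 and Mllt3. It also had to have under 5 counts per 10000 UMIs (CP10k) of Elane and Ctsg, under 10 CP10k of Mpo, under 3 UMIs of Car1 and Klf1 and under 5 CP10k of Pf4, which are genes of granulocytes, red cells and platelets. Of 3403 cells that reached 4 UMIs, 1601 met the exclusions. The members were chosen by the measured UMIs of these genes, so their levels are given as a description and not as a result. Among the members, 111 cells carried UMIs of all 6 genes and 85 cells carried UMIs of 1 of them. Cells with no UMI of Hlf, Mecom, Procr or Meis1 made up 4.39% and 8.16% of the stem-like cells of aged and young mice after stroke, and 5.58% and 7.71% of those of aged and young mice at steady state.

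Some properties of the libraries touch every result. The stem-like cells had median depths of 13140 and 15170 UMIs in the aged and young libraries after stroke, and 6214 and 5458 UMIs in the aged and young libraries at steady state, with 1721266 to 5564727 UMIs per library in all. The highest mitochondrial share of any cell was 9.95% and 9.90% after stroke against 4.99% and 4.91% at steady state, and the rRNA-like transcript Gm42418 took 3.29% and 2.86% of the stem-like UMIs after stroke against 0.818% and 0.932% at steady state. The libraries of the contexts therefore differ in these measures, which cannot be told apart from stroke. Cell barcodes shared between libraries numbered 5 to 21 per pair, and none belonged to stem-like cells in both.

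The label was checked on genes that the rule did not use. A list of 33 other regulators of stem cells, with Kit, Cd34 and Angpt1 among them, summed to 2237 and 2050 CPM (UMIs of a gene per 1000000 UMIs) in the stem-like cells of aged and young mice after stroke, against 529 and 446 CPM in the remaining marrow cells of those libraries. At steady state the sums were 3582 and 3048 CPM in stem-like cells, against 1022 and 1001 CPM in the remaining cells. In each of the 4 libraries the stem-like cells were thus above the other marrow cells. The same was so for 18 genes of lymphoid priming, which summed to 1316 and 3035 CPM in stem-like cells of aged and young mice after stroke, against 1193 and 1953 CPM in the remaining cells. At steady state they summed to 2587 and 2781 CPM in stem-like cells, against 1885 and 2027 CPM in the remaining cells. These lists do not separate stem cells from lymphoid-primed progenitors, and stem-like stands here for the rule, with cells of Flt3, Dntt and mitosis among the members as described below. Cdh5, which defines endothelial cells, stood at 0.676 CPM or lower in every library, and the stromal gene Col1a1 at 0.248 CPM or lower. They do not stand for their lists. The endothelial list summed to 222 and 319 CPM in stem-like cells of aged and young mice after stroke. The remaining cells had 61.4 and 62.8 CPM. At steady state it summed to 321 and 292 CPM, against 116 and 121 CPM. The stromal list summed to 34.2, 34.3, 35.6 and 43.8 CPM in the same 4 libraries, against 6.75, 5.30, 12.04 and 12.8 CPM.

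Transcripts of mature neutrophils were present throughout. The 14 genes of that list (S100a8, S100a9, Camp and others) had a median of 10.8 and 9.70 CP10k per stem-like cell in aged and young mice after stroke, against 39.8 and 42.6 CP10k at steady state. Myeloid-primed progenitors, a class defined below, had like medians of 12.1, 9.35, 34.3 and 37.7 CP10k in the same 4 libraries. Cells with over 1000 CP10k of these transcripts numbered 4 and 0 among the stem-like cells of aged and young mice after stroke, and 52 and 40 among those of aged and young mice at steady state. The 4 cells of the aged library after stroke held 91.7% of its neutrophil UMIs, so neutrophil genes in that library are set by a few cells. A doublet score above 0.25 marked 1, 0, 43 and 25 stem-like cells of these libraries, and without them 268 genes passed by age in place of 20, all 20 included. The counts of a list without these cells are given beside the list where they differ.

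Stem-like cells took a larger share of marrow in aged than in young mice in both contexts. They made up 7.72% (95% interval 6.73% to 8.80%) of the marrow cells of aged mice and 4.33% (3.53% to 5.25%) of those of young mice after stroke. At steady state they made up 11.8% (11% to 12.6%) in aged and 6.64% (6.11% to 7.20%) in young mice. The exact Clopper-Pearson intervals cover counting error only, and with 1 library per group there is no test against the spread between animals. Shares were also taken among cells with at least 5000 UMIs, each thinned to 5000 UMIs. These shares were 5.66% and 3.42% in aged and young mice after stroke and 7.70% and 3.43% at steady state. Aged stood above young in both contexts. Cells under 5000 UMIs were left out, while the median depth of stem-like cells at steady state was 6214 UMIs in aged and 5458 UMIs in young mice.

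The order of the measured shares by age after stroke differed with the whole that the share is taken of. Myeloid-primed progenitors were marrow cells with at least 2 UMIs of Kit and Cd34 and at least 10 CP10k of Mpo, the myeloperoxidase of granulocyte precursors, that met the limits on Car1, Klf1 and Pf4. Of stem-like and myeloid-primed cells together, stem-like cells were 35.5% in aged and 22.4% in young mice at steady state. After stroke they were 54.4% (49.2% to 59.5%) in aged and 65.8% (57.6% to 73.3%) in young mice, so aged stood below young. These intervals overlap, so the turned order can lie within counting error. The young library after stroke held 51 myeloid-primed cells, the smallest number of the 4, and its share of both classes rests on that number.

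**Figure D1:**
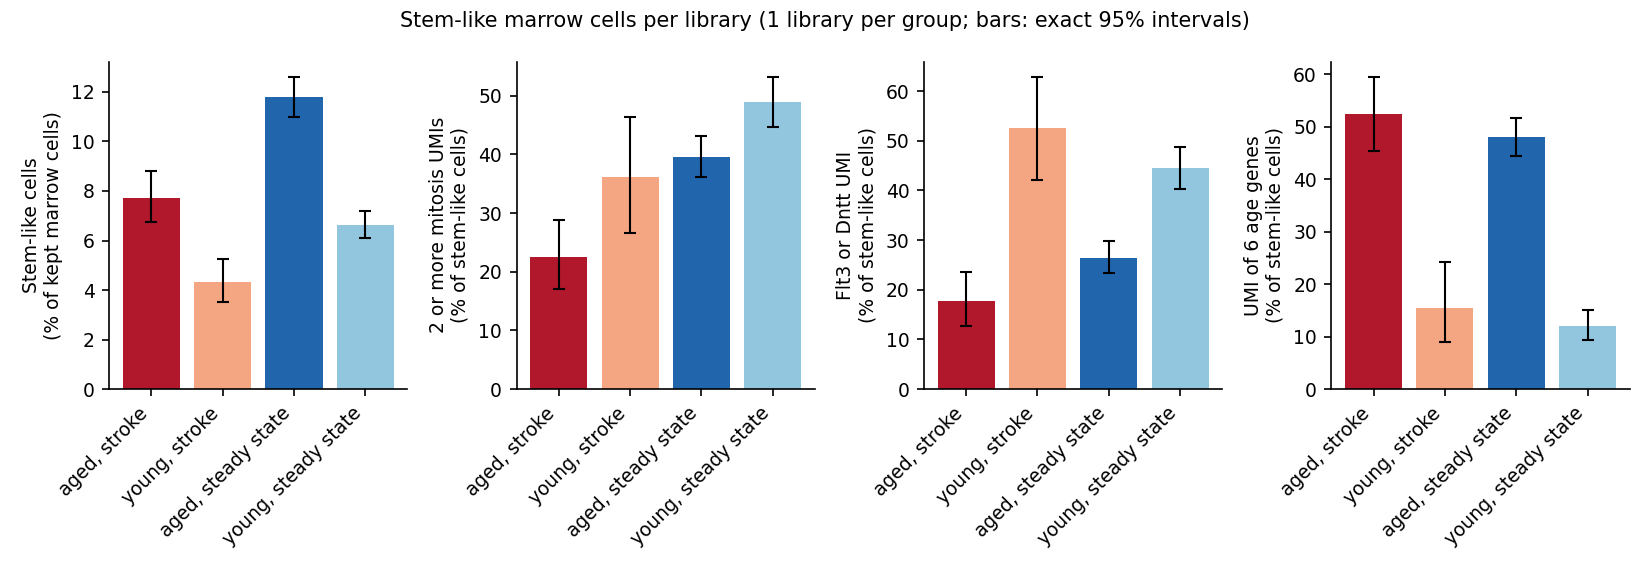
Shares per library with exact 95% intervals: stem-like cells as a percent of kept marrow cells, and, as a percent of stem-like cells thinned to 3000 UMIs, cells with at least 2 UMIs of the mitosis list, with a UMI of Flt3 or Dntt, and with a UMI of Nupr1, Selp, Sult1a1, Clca3a1, Clec1a or Trim47. In both contexts aged stands above young in the first and last panel and below young in the panels on mitosis and on Flt3 or Dntt.

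The genes of the rule, given as a description, did not all differ alike by age. Adgrg1 gave the most UMIs, with 320.2 and 299 CPM in stem-like cells of aged and young mice after stroke and 559 and 493 CPM at steady state, on a scale of CPM after TMM scaling that holds for all levels below. Hlf stood at 189 and 228 CPM in aged and young mice after stroke and at 309 and 335 CPM at steady state, and Meis1 at 117 and 122 CPM and at 160.3 and 165 CPM. Hlf and Meis1 thus lay close between ages. Mecom stood at 83.3 and 54.7 CPM in aged and young mice after stroke and at 93.1 and 57.8 CPM at steady state. Procr stood at 58.1 and 25.7 CPM after stroke and at 59.1 and 29.5 CPM at steady state, and Mllt3 at 78.6 and 26.4 CPM and at 98.0 and 37.7 CPM. The levels of Mecom, Procr and Mllt3 were higher in both aged libraries than in both young ones.

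The sum of the 6 genes was accordingly further above the limit in aged cells. Its median was 11 UMIs in aged and 9.5 UMIs in young mice after stroke, and 10 UMIs in aged and 7 UMIs in young mice at steady state. Cells that entered with exactly 4 UMIs were 8.78% and 20.4% of the stem-like cells of aged and young mice after stroke, and 7.57% and 19.1% at steady state. Just inside the limit, with 4 UMIs, Hlf had 56.1 CPM in aged and 72.7 CPM in young mice at steady state, before scaling, and just outside, with 3 UMIs, it had 31.4 CPM and 42.5 CPM. Because Mecom, Procr and Mllt3 stood higher in aged cells, calls were also made for cells with at least 4 UMIs of Hlf, Adgrg1 and Meis1 alone. That left 188, 94, 729 and 521 cells in the aged and young libraries after stroke and the aged and young libraries at steady state, and it made 66 calls by age, among them all 20 of the calls described next.

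With age, Nupr1, Selp, Sult1a1 and Mt1 were among the genes that rose in stem-like cells, and Irf8 and Ccl3 fell. Of 12150 genes tested, 18 rose in aged cells (0.148%) and 2 fell (0.0165%) at an adjusted p below 0.05, in edgeR's quasi-likelihood test of aged against young with context as a term. A total of 1299 genes had an unadjusted p below 0.05. With 1 library per group, this test sets the mean age difference against how far it varied between the contexts, not against animals. That spread had 1 residual degree of freedom per gene and 4.74 prior ones shared over genes, so it rests mostly on other genes. The count moved between 0 (context left out as a term) and 714 (no filter on low counts) with the processing, while the 20 genes kept their direction in all 16 alternatives in which they were tested.

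Nupr1, a small chromatin-associated protein induced by cell stress, stood at 154 CPM in aged and 6.08 CPM in young mice after stroke, and at 123 CPM in aged and 9.17 CPM in young mice at steady state. Both aged libraries lay above both young ones, and the log2 fold change was 4.01 ± 0.20 (SE, 4 libraries; adjusted p = 0.0147). Selp, the adhesion receptor P-selectin, stood at 67.1 CPM in aged and 8.78 CPM in young mice after stroke, and at 56.5 CPM in aged and 8.18 CPM in young mice at steady state (log2 2.83 ± 0.17, adjusted p = 0.0147). Sult1a1, a sulfotransferase that conjugates phenols, stood at 195 CPM in aged and 22.97 CPM in young mice after stroke, and at 62.3 CPM in aged and 3.97 CPM in young mice at steady state. Its fold change was 3.44 ± 0.21 (adjusted p = 0.0147), and it also rose with stroke (1.79, adjusted p = 0.00292).

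Mt1, a metallothionein that binds zinc and copper, stood at 118 CPM in aged and 23.6 CPM in young mice after stroke, and at 90.0 CPM in aged and 15.9 CPM in young mice at steady state (log2 2.43 ± 0.13, adjusted p = 0.0147). Its neighbour Mt2 stood at 11.8 CPM in aged and 1.35 CPM in young mice after stroke, and at 21.4 CPM in aged and 1.24 CPM in young mice at steady state, and did not pass (3.83 ± 0.40, adjusted p = 0.0559, and 0.00116 without doublets). Mt2 was singled out after its values were seen, and 10 cells held 80% of the 35 Mt1 UMIs of the young library after stroke. Both genes lie on chromosome 8, and their promoters are shown because the pair moved the same way: RefSeq sequence on the plus strand of GRCm38.p6, 250 bases before to 50 bases after the start, at chr8:94178839-94179138 for Mt1 and chr8:94172368-94172667 for Mt2. Capitals mark matches, on either strand, to TGCGCNC or TGCACNC, the core of the metal response element bound by the zinc sensor MTF1.
Mt1: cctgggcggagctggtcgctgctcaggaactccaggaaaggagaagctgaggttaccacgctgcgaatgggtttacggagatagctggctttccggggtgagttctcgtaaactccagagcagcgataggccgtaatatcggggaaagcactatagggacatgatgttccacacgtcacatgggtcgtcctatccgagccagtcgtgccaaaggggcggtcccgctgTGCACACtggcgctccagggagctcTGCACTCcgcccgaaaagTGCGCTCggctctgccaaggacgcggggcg
Mt2: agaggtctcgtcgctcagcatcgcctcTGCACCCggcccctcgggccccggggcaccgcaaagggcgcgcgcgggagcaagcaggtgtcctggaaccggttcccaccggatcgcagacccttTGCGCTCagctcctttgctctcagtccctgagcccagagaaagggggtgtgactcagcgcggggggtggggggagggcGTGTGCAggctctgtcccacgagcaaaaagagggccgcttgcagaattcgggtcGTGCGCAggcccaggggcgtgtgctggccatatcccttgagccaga
The Mt1 promoter held 3 matches and the Mt2 promoter 4. Of 32851 promoters of this length, 1.97% held at least 3 and 0.518% at least 4, and a match describes these letters and not binding.

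The other genes that rose have varied roles. Clca3a1, a secreted regulator of chloride channels, stood at 47.7 CPM in aged and 0.676 CPM in young mice after stroke, and at 35.9 CPM in aged and 1.49 CPM in young mice at steady state (4.92 ± 0.33, adjusted p = 0.0183), and it shares 37.5% of its 3′ end with other genes. Clec1a, a C-type lectin receptor, rose by 3.63 ± 0.25 and Trim47, of the family of tripartite motif ubiquitin ligases, by 2.35 ± 0.18 (adjusted p = 0.0183 and 0.0343). Selenom, a selenoprotein of the endoplasmic reticulum, rose by 1.71 and Hacd4, an enzyme of fatty acid elongation, by 1.34. Gng11, a G protein subunit, rose by 1.16.

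Vwf, the von Willebrand factor that marks platelet-biased stem cells, stood at 11.8 CPM in aged and 1.35 CPM in young mice after stroke, and at 36.3 CPM in aged and 0.744 CPM in young mice at steady state (4.94 ± 0.47, adjusted p = 0.0487). Cldn5, a tight junction protein, had 171 and 116 UMIs in aged mice after stroke and at steady state and 0 UMIs in both young libraries. Against a floor of 3 counts per young library it was at least 30.3-fold higher in aged mice after stroke and at least 24.0-fold higher at steady state. In the aged library after stroke 10 cells held 69.0% of its UMIs. Gpr183 (2.29), an oxysterol receptor that guides cell migration, Cpne8 (3.28) and the unnamed transcript Gm10419 (3.17) also rose. Mllt3 (1.45) passed as well, which is a description, since the rule used it. Jchain, the joining chain of secreted antibodies, passed too, but 10 cells held 96.0% of its 299 UMIs in the aged library at steady state, and its ratio after stroke had an interval from -2.25 to 6.71 on the log2 scale.

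**Figure D2:**
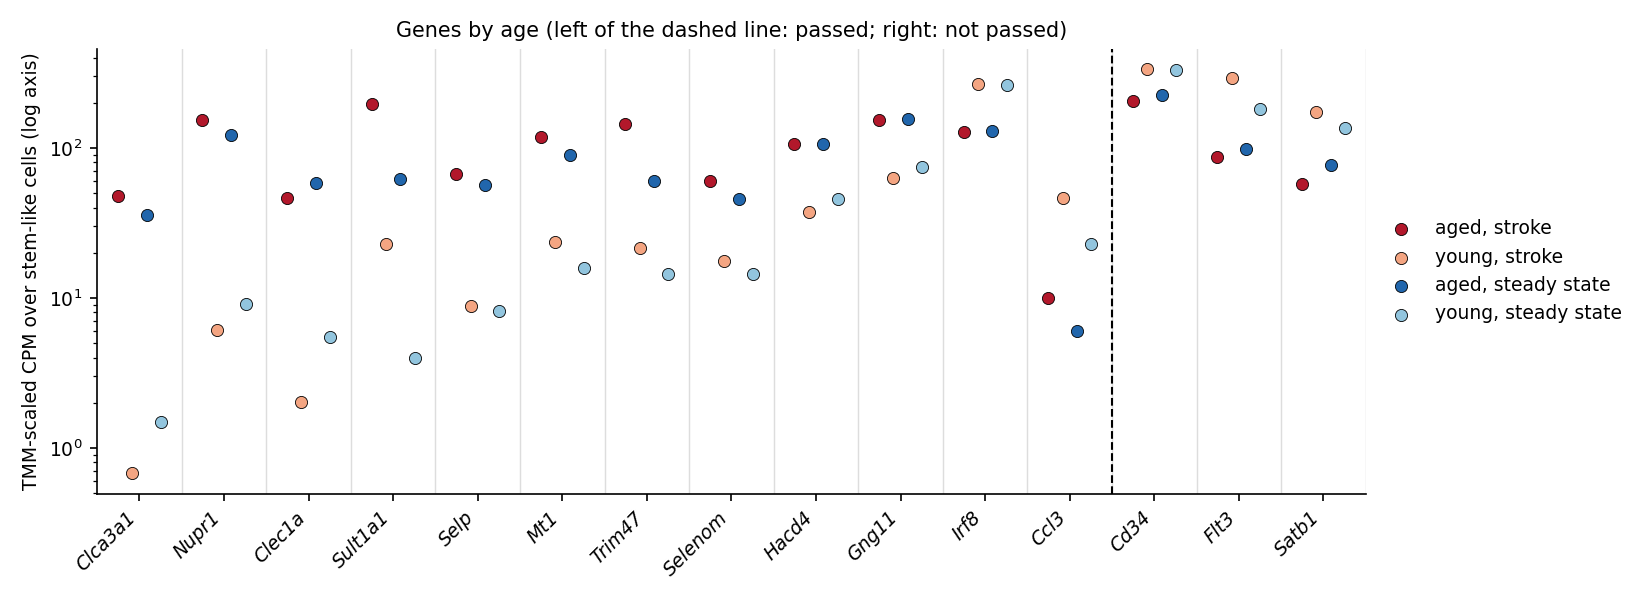
Level of each gene over the stem-like cells of each library, in TMM-scaled CPM on a log axis, with 1 point per library. For the 10 genes at the left both aged points lie above both young points, and for Irf8, Ccl3, Cd34, Flt3 and Satb1 both aged points lie below both young points.

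Irf8, a transcription factor of monocytes and dendritic cells, stood at 128 CPM in aged and 268 CPM in young mice after stroke, and at 129 CPM in aged and 261 CPM in young mice at steady state. The aged libraries lay near a common level below the young ones (log2 -1.04 ± 0.10, adjusted p = 0.0487), and the call was lost in 6 of 16 alternatives. Its log2 fold change was -0.16 with at least 6 UMIs of the 6 genes (adjusted p = 0.812), -0.49 without dividing cells (0.299) and -0.61 without cells with Flt3 or Dntt (0.709). The last of these settings left 127 and 20 cells of aged and young mice after stroke, and 491 and 246 cells at steady state. Among cells thinned to 3000 UMIs that still had 4 or more UMIs of the 6 genes, Irf8 stood at 56.3 CPM in aged and 59.0 CPM in young mice at steady state before scaling, and among those with 0 to 1 at 283.5 CPM and 662 CPM. The level by age thus lay close in the cells richest in the 6 genes at steady state. The 10 cells richest in it held 88.2% and 79.5% of the Irf8 UMIs of aged and young mice after stroke, and 40.0% and 39.9% at steady state. Ccl3, a chemokine, stood at 10.1 CPM in aged and 46.6 CPM in young mice after stroke, and at 6 CPM in aged and 23.1 CPM in young mice at steady state (-2.06 ± 0.21, adjusted p = 0.0493). The genes next in rank by p on this side did not pass. Sox4, a transcription factor of early lymphoid progenitors, had a log2 fold change of -0.84 (adjusted p = 0.0808), Maml3 of -0.85 (0.104), Gm26735 of -0.85 (0.117), Plac8 of -0.79 (0.118), and the mitotic genes Ube2c and Kif23 of -0.94 and -0.76 (both 0.121). Each of these 6 genes was lower in aged than in young mice in both contexts, and without doublets all 6 passed (adjusted p from 0.00156 to 0.0153).

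A list of 31 genes known from earlier work to be higher in aged stem cells was chosen with results of these data known, so its direction is no independent support. Of its 31 genes 27 passed the filter on low counts, and the 4 others (Osmr, Zg16, Tc2n and Neo1) stood at 7.69 CPM or lower in every library. Procr and Mllt3 belong to the rule as well as to the list, and the counts that follow leave them out. Of the 25 others tested, 6 rose and 0 fell, with a median log2 fold change of 2.44, against -0.00 over all 12150 genes, and without doublets 23 rose. Those that rose were Vwf, Nupr1, Sult1a1, Selp, Mt1 and Gpr183. Gda, a guanine deaminase, had 1.87 (adjusted p = 0.133), the tetraspanin Cd9 0.72 (0.253) and Prtn3, proteinase 3 of granules, 0.73 (0.115), and without doublets they passed (0.00116, 0.0328 and 0.00359). The ratio of aged to young lay above 0 in both contexts for 24 of 25 members, as it did for 29.3% of all genes. The exception was Dnmt3b, a DNA methyltransferase, which stood at 22.97 CPM in aged and 38.5 CPM in young mice after stroke, and at 44.8 CPM in aged and 49.6 CPM in young mice at steady state.

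Of 33 regulators of stem cells 1 rose and 0 fell, with a median of 0.51 on the log2 scale. The count differed by setting: 8 rose and 2 fell without doublets, and 11 rose and 2 fell without dividing cells. Without the neutrophil-rich 10% of cells 7 rose and 2 fell. The prior degrees of freedom were 10.2, 27.2 and 8.46 in these settings, against 4.74 in the reported fit. Whether the cells or this pooled spread moved the count was not tested. Those with the highest levels did not pass in the reported fit or without doublets: Lmo2, a bridging factor of blood transcription complexes, had a log2 fold change of -0.03, the stem cell factor receptor Kit 0.12 and the niche factor Angpt1 0.36. Cd34, a sialomucin that is low on long-term stem cells of mice, stood at 207 CPM in aged and 334 CPM in young mice after stroke, and at 224 CPM in aged and 333 CPM in young mice at steady state (-0.63 ± 0.10, adjusted p = 0.129). Its call differed by setting, since it passed in 10 of 16 alternatives. Of 14 tested of 19 genes of megakaryocytes and platelets, 1 rose, Vwf, and 0 fell, and 4 rose without doublets as well as without the neutrophil-rich 10% of cells. Rap1b, Fli1 and Plek, the most abundant with Cd9, had log2 fold changes of 0.19, 0.17 and -0.17. Gp1bb and Ppbp, which define platelets, stood at 0.769 CPM or lower in all 4 libraries. The rule kept only cells with under 5 CP10k of the platelet gene Pf4. These low levels are therefore no independent result, and the counts of this list hold for such cells only.

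Genes of lymphoid priming pointed the other way, and 0 of 18 passed. Their median log2 fold change was -0.74, and 15 of 18 lay below 0 in both contexts, as did 29.6% of all genes. Flt3, the cytokine receptor of lymphoid-primed progenitors, stood at 87.2 CPM in aged and 292 CPM in young mice after stroke, and at 98.8 CPM in aged and 181 CPM in young mice at steady state (-1.28 ± 0.21, adjusted p = 0.134). Satb1, a chromatin organiser of early lymphoid cells, stood at 57.8 CPM in aged and 173 CPM in young mice after stroke, and at 76.8 CPM in aged and 137 CPM in young mice at steady state (-1.16 ± 0.18, adjusted p = 0.133). Flt3 and Satb1 were picked after their values were seen. Without doublets 9 of the 18 genes passed as lower in aged cells.

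The most abundant genes of that list varied more between contexts. Dntt, the polymerase that adds bases to antigen receptor joints, stood at 130.3 CPM in aged and 624 CPM in young mice after stroke, but at 277 CPM in aged and 356 CPM in young mice at steady state (-1.28 ± 0.42, adjusted p = 0.377). Mef2c, a transcription factor of lymphoid priming, had -0.20 and Wfdc17 -0.38. Ighm, the mu heavy chain, stood at 59.9 CPM in aged and 271 CPM in young mice after stroke, and at 509 CPM in aged and 226 CPM in young mice at steady state, so its order by age was opposite in the contexts. The 10 richest cells held 75.6% of the Ighm UMIs of the aged library at steady state. Plasmacytoid dendritic cells share several of these genes. Of 7 genes of that type 5 were tested and 0 passed: Siglech had -1.60, Cox6a2 -1.47, Flt3 -1.28 and Bst2 -0.32, and Klk1 had 0 UMIs in the 4 libraries. Without doublets 4 of the 5 passed as lower in aged cells, among them Siglech (adjusted p = 0.0299), Cox6a2 (0.0163) and Flt3 (0.0043), and 3 of 5 did without the neutrophil-rich 10% of cells.

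The share of stem-like cells with Flt3 or Dntt gave the same order. It counts UMIs of the same genes in the same cells. Flt3 was also picked after its values were seen, so the share by age restates the levels above. After thinning to 3000 UMIs, a UMI of either gene was found in 17.6% of the cells of aged and 52.6% of those of young mice after stroke, and in 26.4% of aged and 44.4% of young cells at steady state. The intervals of aged and young did not overlap in either context. In myeloid-primed progenitors, thinned alike, the shares were 8.14% and 8.16% in aged and young mice after stroke and 13.8% and 15.6% at steady state. The young stem-like libraries lay furthest above that class.

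Genes of mitosis were lower in aged stem-like cells as well, though 0 of 24 passed. All 24 lay below 0 in both contexts, with a median of -0.71 on the log2 scale. Top2a, the topoisomerase of dividing cells, stood at 258 CPM in aged and 384 CPM in young mice after stroke, and at 383 CPM in aged and 567 CPM in young mice at steady state (-0.57 ± 0.09, adjusted p = 0.131). Mki67, which encodes the marker Ki-67, had -0.45 and Birc5, a subunit of the chromosomal passenger complex, -0.51. Without doublets 13 of 24 passed as lower in aged cells. Without cells that carry Flt3 or Dntt 0 of 24 passed, 5 lay above 0 and the median was -0.26. That setting left 20 of the 98 stem-like cells of the young library after stroke, and the part of this loss of cells was not tested. Of 28 genes of DNA replication 0 passed, with a median of -0.04.

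Cells with at least 2 UMIs of the mitosis list, thinned to 3000 UMIs, were 22.5% (17.0% to 28.9%) of the stem-like cells of aged mice and 36.1% (26.6% to 46.5%) of those of young mice after stroke. At steady state they were 39.6% (36.1% to 43.2%) in aged and 48.9% (44.6% to 53.2%) in young mice. Unthinned, the shares were 52.2% and 66.3% after stroke and 56.8% and 61.5% at steady state, where the intervals of aged and young overlap. The thinned intervals of aged and young overlap after stroke and not at steady state. The aged shares were below the young ones in each of these comparisons. In myeloid-primed progenitors the thinned shares were 79.7% and 77.6% in aged and young mice after stroke and 84.4% and 80.5% at steady state, with aged not below young.

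**Figure D3:**
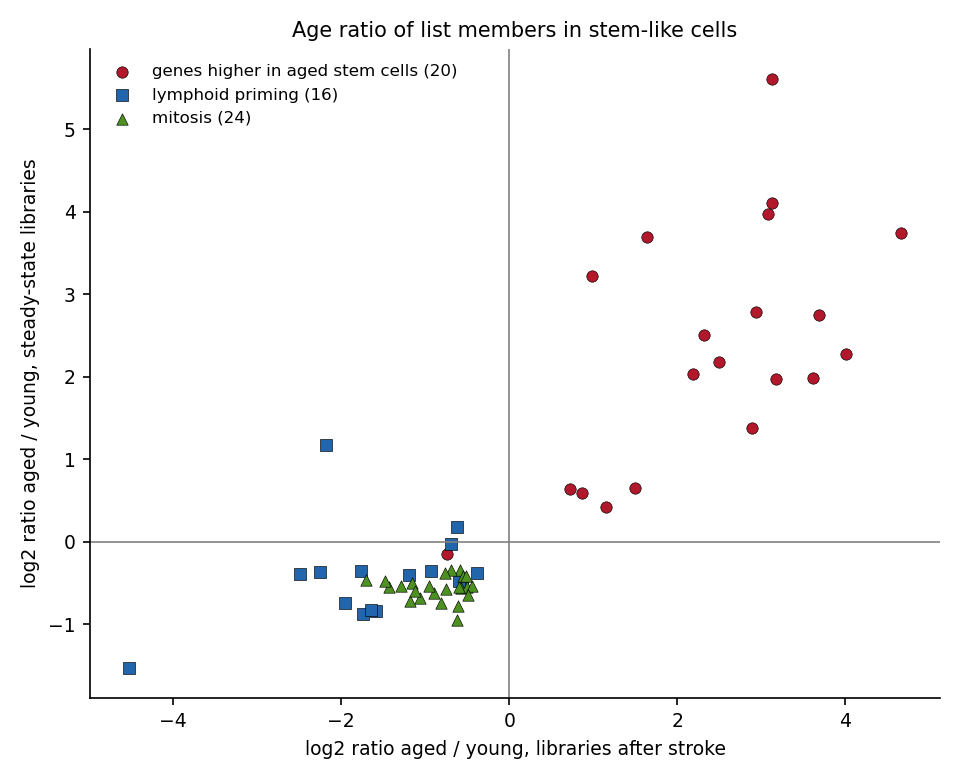
Log2 ratio of aged to young in the libraries after stroke (x axis) and at steady state (y axis) for members of 3 lists that passed the filter and had UMIs in all 4 libraries (20 of 25, 16 of 18 and 24 of 24), without the genes of the rule. The genes of aged stem cells lie in the upper right, but for Dnmt3b, and the mitosis genes all lie in the lower left.

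The shares of cells with age genes were set against the lymphoid and mitotic transcripts of the same cells. A UMI of Nupr1, Selp, Sult1a1, Clca3a1, Clec1a or Trim47 was found in 52.5% of aged and 15.5% of young stem-like cells after stroke, and in 48.0% of aged and 12.04% of young ones at steady state (thinned). Myeloid-primed progenitors, at the same depth, had 3.49% and 0% after stroke and 3.29% and 2.49% at steady state, where 0 of 49 cells allows up to 7.25% (exact upper limit). The 6 genes were taken from those that rose, so the difference by age in these shares restates that choice. Within a library the choice did not use the split by other genes.

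In the aged library at steady state, 19.2% (13.9% to 25.4%) of the cells with Flt3 or Dntt and 58.3% (54.1% to 62.5%) of the cells without them carried an age gene. In the aged library after stroke the shares were 27.8% (14.2% to 45.2%) with and 57.7% (49.9% to 65.3%) without. In the young library after stroke they were 9.80% with and 21.7% without, and in the young library at steady state 7.50% and 15.7%. The cells with Flt3 or Dntt stood below the cells without in all 4 libraries, and the intervals did not overlap in the 2 aged ones. Among cells with and without 2 mitosis UMIs, the shares were 24.2% and 63.6% in the aged library at steady state, 34.8% and 57.6% in the aged library after stroke, 2.86% and 22.6% in the young library after stroke and 9.47% and 14.5% in the young library at steady state. Cells of 1 library are not replicates, so these values have no test.

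**Figure D4:**
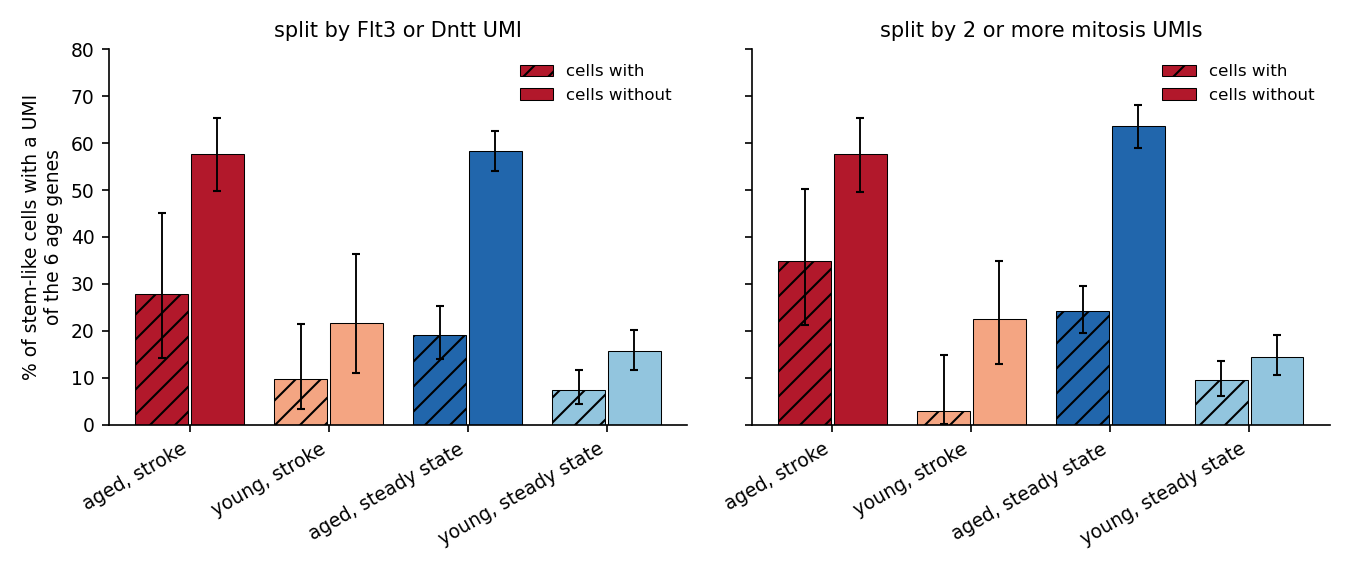
Percent of stem-like cells, thinned to 3000 UMIs, that carry a UMI of 6 genes that rose with age, with exact 95% intervals. Cells with Flt3 or Dntt (left panel, hatched) and cells with 2 or more mitosis UMIs (right panel, hatched) stand below the cells without them in each library.

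The age difference was also set against the same difference in myeloid-primed progenitors, which tests where stem-like cells differ. Of 13141 genes, 120 had a higher log2 age ratio in stem-like than in myeloid-primed cells (0.913%) and 124 a lower one (0.944%), 1.86% in all. Of these 244, 228 had the same sign of difference in both contexts. The genes were called on both contexts together, so this agreement is no independent support, and no share over all genes is set beside it. Nupr1 stood at 8.08 CPM in aged and 3.16 CPM in young myeloid-primed cells after stroke and at 2.34 CPM in aged and 1.56 CPM in young ones at steady state, and its age ratio was 3.20 ± 0.37 higher in stem-like cells (adjusted p = 2.7e-15). Mt1 was more abundant in myeloid-primed than in stem-like cells, with 738 CPM in aged and 757 CPM in young mice after stroke and 196 CPM in aged and 167 CPM in young mice at steady state. Its age ratio was 2.30 ± 0.15 higher in stem-like cells (adjusted p = 2.83e-48). Selp (2.33), Sult1a1 (3.48), Selenom (1.76), Gng11 (1.16) and Hacd4 (1.28) passed in the same direction.

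On the other side, the age ratio of Top2a was 0.88 lower in stem-like than in myeloid-primed cells (-0.88 ± 0.12, adjusted p = 5.51e-11), where it stood at 234 CPM in aged and 144 CPM in young mice after stroke and at 442 CPM in aged and 449 CPM in young mice at steady state. Ube2c differed by -0.92, Plac8 by -0.69 and Irf8 by -0.50, all passed. Kit and Cd34 chose the myeloid-primed cells, so their differences between the classes are not given. These tests share 1 spread over genes, so a gene whose contexts disagree can still pass, and with a robust estimate of the spread 215 of the 244 passed. With cells thinned to 3000 UMIs, 40 genes passed in place of 244.

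With stroke, Socs3, Pim1, Tsc22d3, Junb and Ly6a were among the genes that rose in stem-like cells, and Angpt1 and Prdm16 were among those that fell. Of 12150 genes 1342 rose with stroke (11%) and 685 fell (5.64%), 16.7% in all, in the same fit with age as a term. The libraries after stroke were deeper and held more ribosomal protein transcripts, 35.7% and 35.7% of UMIs in aged and young mice against 26.0% and 25.2% at steady state. Without scaling factors the median of all genes shifts by -0.46 on the log2 scale and the split turns to 777 higher and 5009 lower. A change below that size is therefore a statement about levels relative to other genes.

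Socs3, the feedback inhibitor of G-CSF and interleukin-6 signalling, stood at 72.1 and 20.3 CPM in aged and young mice after stroke, against 6.92 and 2.23 CPM in aged and young mice at steady state (log2 3.33 ± 0.20, adjusted p = 0.000447). Both stroke libraries lay above both steady-state ones. The log2 ratio of aged to young was 1.83 (1.27 to 2.44) after stroke and 1.63 (0.58 to 2.85) at steady state, and this age difference did not pass (adjusted p = 0.0808). The promoter of Socs3 is shown because STAT factors are known to drive this gene: RefSeq sequence of the minus strand of GRCm38.p6 at chr11:117969317-117969616, with capitals at a match to TTCNNNGAA, the palindrome that STAT dimers bind. The RefSeq table holds 2 promoters of Irf8, both on the plus strand, and the one at chr8:120736108-120736407 is set beside it for the same motif. The other, at chr8:120738389-120738688, held 0 matches.
Socs3: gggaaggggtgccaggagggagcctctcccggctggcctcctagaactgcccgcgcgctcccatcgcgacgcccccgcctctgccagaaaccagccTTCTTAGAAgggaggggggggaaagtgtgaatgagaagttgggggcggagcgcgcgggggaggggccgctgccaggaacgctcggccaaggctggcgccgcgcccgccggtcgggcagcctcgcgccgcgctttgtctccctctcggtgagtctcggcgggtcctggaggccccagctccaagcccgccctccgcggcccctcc
Irf8: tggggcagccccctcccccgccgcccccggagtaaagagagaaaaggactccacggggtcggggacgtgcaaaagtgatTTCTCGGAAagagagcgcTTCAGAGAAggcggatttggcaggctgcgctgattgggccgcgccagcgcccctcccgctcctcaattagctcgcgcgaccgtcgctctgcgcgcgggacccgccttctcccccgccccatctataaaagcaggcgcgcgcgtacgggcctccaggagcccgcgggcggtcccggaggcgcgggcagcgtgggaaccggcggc
The Socs3 window held 1 match, as do 8.30% of 32851 promoters at least once, and the Irf8 window printed held 2, as do 0.457% at least. The matches describe the letters only.

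Of 19 genes of G-CSF signalling and emergency granulopoiesis 5 rose and 2 fell, where 11% of all genes rose and 5.64% fell. Pim1, a kinase induced by STAT5, stood at 594 and 441 CPM in aged and young mice after stroke, against 216 and 172 CPM at steady state (1.41 ± 0.09, adjusted p = 0.000547). Junb (1.58), Socs1 (1.12) and Cebpb (0.83), the C/EBP factor of emergency granulopoiesis, also rose. Socs1 lost the call in 6 of 16 alternatives and Cebpb in 3 of 15. Csf3r, the receptor for G-CSF, stood at 25.8 and 28.4 CPM in aged and young mice after stroke, against 55.9 and 63.7 CPM at steady state, and fell (-1.13 ± 0.13, adjusted p = 0.00501), as did Stat5a (-0.68). Stat5a lost the call in 4 of 15 alternatives. Neutrophils carry Csf3r too. The list of mature neutrophils had a stroke median of -1.99 on the log2 scale, with 4 of 14 genes that fell. Without doublets 3 of the 14 fell and 1 rose. Without the neutrophil-rich 10% of cells the log2 fold change of Csf3r was -0.85 (adjusted p = 0.0118). In that setting all 14 mature neutrophil genes fell too, with a median of -1.72, so it does not separate Csf3r from neutrophil transcripts. Stat3 (0.10), Myc (0.23) and Lcn2 (-1.38), which are among the most abundant of the list, did not pass.

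Of 16 glucocorticoid targets tested 6 rose and 0 fell, against 11% and 5.64% of all genes. The targets had 12 above 0 and a median of 0.37 on the log2 scale, against -0.03 over all genes. Tsc22d3, which encodes the leucine zipper GILZ, stood at 160.1 and 183 CPM in aged and young mice after stroke, against 71.7 and 51.3 CPM at steady state (1.47 ± 0.17, adjusted p = 0.00499). Ddit4, an inhibitor of mTORC1, stood at 35.2 and 72.3 CPM after stroke, against 12.3 and 8.18 CPM at steady state (2.22 ± 0.37, adjusted p = 0.0158). The clock gene Per1 (1.41), Klf9 (0.83), the co-chaperone Fkbp5 (0.79) and Txnip (0.75), which holds stem cells in quiescence, rose as well. Klf9 lost the call in 5 of 16 alternatives, Fkbp5 in 4 of 15, and Per1 and Txnip each in 1 of 16. Nfkbia (0.24) and Mt1 (0.43) did not pass. In myeloid-primed cells Tsc22d3 stood at 18.8 and 36.1 CPM after stroke, against 20.5 and 20.8 CPM at steady state, and its stroke ratio was 1.22 higher in stem-like cells (adjusted p = 5.88e-12).

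Beside the counts of lists that follow, 11% of all genes rose with stroke and 5.64% fell. Of 18 immediate early genes tested 6 rose and 0 fell (8 rose without doublets), while 8 of the 18 had a log2 fold change below 0. Those that rose were Fosb (15 and 6 UMIs in aged and young mice after stroke, against 5 and 0 at steady state), Junb (1.58), Ier3 (1.11), Jund (1.08), Ier2 (0.73) and Jun (0.52). Jun lost the call in 5 of 16 alternatives, with a log2 fold change down to 0.061, and Ier2 in 3 of 16. Of 22 tested genes of the NF-kB and interleukin-1 response 5 rose and 0 fell. Only 1 rose without cells with Flt3 or Dntt and 1 without dividing cells. With at least 6 UMIs of the 6 genes 1 rose and 1 fell, and 5 rose and 1 fell without doublets. The young library after stroke held 20 cells without those with Flt3 or Dntt and 33 cells without dividing ones. The chemokine Ccl4 stood at 65.0 and 70.9 CPM in aged and young mice after stroke, against 17.5 and 25.03 CPM at steady state (1.71 ± 0.15, adjusted p = 0.00176). Ccl3 (0.91), the interleukin-1 receptor Il1r1 (0.90) and Sod2 (0.44, but below 0 without scaling factors) rose by less. Ccl3 and Il1r1 each lost the call in 8 of 16 alternatives, with log2 fold changes down to 0.46 and 0.065, and Bcl2a1b, which also passed, shares 88.5% of its 3′ end with other genes. Cxcr4, the receptor that holds cells in the niche, stood at 54.6 and 109 CPM after stroke, against 35.9 and 41.6 CPM at steady state (0.98 ± 0.20, adjusted p = 0.0282). It lost the call in 4 of 16 alternatives. Of 34 interferon-stimulated genes tested, 1 rose and 1 fell, and 4 rose and 4 fell without doublets.

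Among the regulators of stem cells 1 of 33 rose and 5 fell after stroke (1 and 7 without doublets). Over all genes 11% rose and 5.64% fell. Ly6a, the surface marker Sca-1, stood at 170.5 and 99.3 CPM in aged and young mice after stroke, against 74.3 and 53.04 CPM at steady state (1.07 ± 0.12, adjusted p = 0.00392). It shares 29.1% of its 3′ end with other genes. Angpt1 stood at 201 and 148 CPM after stroke, against 307 and 252 CPM at steady state (-0.69 ± 0.10, adjusted p = 0.0115). Prdm16 (-1.22), Erg (-0.46) and Runx1 (-0.45) fell as well. Erg lost the call in 7 of 15 alternatives, Runx1 in 5 of 16, Prdm16 in 4 of 16 and Angpt1 in 1 of 15. The genes of the rule, as a description, had stroke log2 fold changes of -0.76 for Adgrg1, -0.64 for Hlf, -0.45 for Meis1, -0.38 for Mllt3, -0.13 for Mecom and -0.08 for Procr. The cells after stroke were deeper, so a cell reached 4 UMIs of these genes at a lower level, with a median of 7.81 and 6.76 CP10k of the 6 genes in aged and young mice after stroke against 14.1 and 12.99 CP10k at steady state. How far that depth sets the lower levels of the other regulators was not tested. With at least 3 CP10k of the 6 genes required as well, the stroke log2 fold change was -0.54 for Adgrg1, -0.39 for Angpt1 and -0.31 for Hlf, and that of Hlf no longer passed (adjusted p = 0.138).

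**Figure D5:**
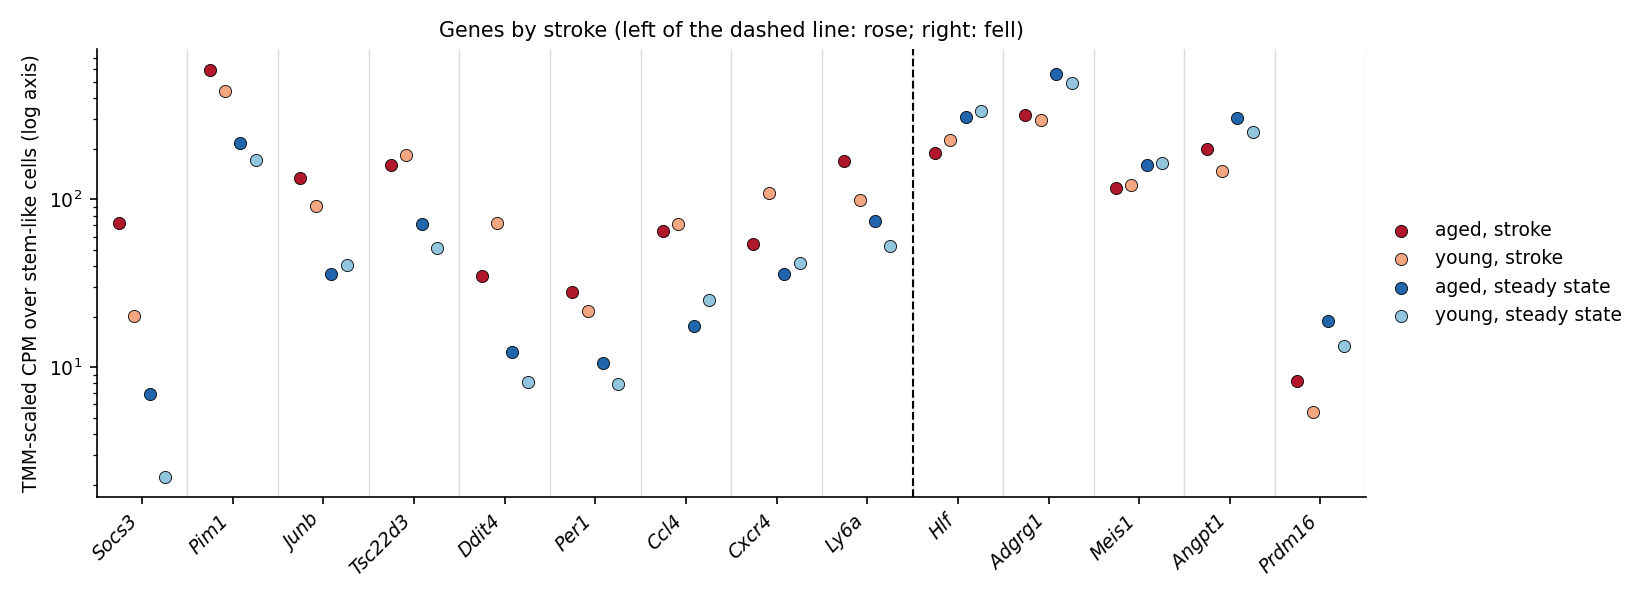
Level of each gene over the stem-like cells of each library, in TMM-scaled CPM on a log axis, with 1 point per library. For the 9 genes at the left both points after stroke lie above both steady-state points, and for the 5 at the right they lie below them.

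By size, the leading genes with stroke were of another kind. Among genes with a mean of at least 20 CPM, the 12 largest increases were Gm14173, Gm10736, Rpl6l, Hist1h2ai, Gstp1, Tpt1-ps3, Hist1h3f, Hist1h3b, Gm3699, Atp5g2, Hist1h2ab and Hist1h4h. Gm14173 stood at 54.2 and 54.7 CPM in aged and young mice after stroke, against 0.308 and 0 CPM at steady state, and Hist1h4h, the smallest of them, had a log2 fold change of 4.12. Each shares 57.8% to 100% of the last 300 bases of its transcript with another gene, and several are annotated copies of ribosomal protein or histone genes. Of the genes that rose, 67.1% share some 3′ sequence, against 37.2% of the genes that did not pass, and how the reads of such genes were counted in each library cannot be told apart from stroke. Among the 7206 genes tested with no shared 3′ sequence, 503 rose and 291 fell. Of 36 ribosomal protein genes 33 rose and of 30 genes of oxidative phosphorylation 18 rose (22 without doublets), and none of the ribosomal ones is free of shared sequence.

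Under the same rule, the 12 largest decreases were Retnlg, Elane, Gm37474, Mmp8, Mmp9, Kcnq1ot1, C3, Cybb, Gm47664, Itgam, C130089K02Rik and Gm44694, from -3.16 to -1.49. Retnlg, Mmp8, Mmp9, Cybb and Itgam are neutrophil genes, which move here with the neutrophil transcripts given above. C3 and Cybb no longer passed without doublets (adjusted p = 0.198 and 0.176), and Elane is a gene that the rule holds low. Retnlg stood at 187 and 25 CPM in aged and young mice after stroke, against 841 and 624 CPM at steady state, and 10 cells held 88.7% of its UMIs in the aged library after stroke. Kcnq1ot1, an imprinted nuclear long noncoding RNA, stood at 131 and 140.5 CPM after stroke, against 535 and 456 CPM at steady state (-1.87 ± 0.12, adjusted p = 0.000479), with little spread between ages. S100a8 stood at 8095 CPM in aged and 496 CPM in young mice after stroke, and at 7604 CPM in aged and 8432 CPM in young mice at steady state, and passed neither for stroke nor for age. The 10 richest cells held 96.4% of its UMIs in the aged library after stroke. Cd74, the invariant chain of MHC class II, stood at 756 CPM in aged and 70.3 CPM in young mice after stroke and at 222 CPM in aged and 167 CPM in young mice at steady state, and 10 cells held 88.9% of its UMIs in the aged library after stroke.

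Between the classes, 1069 of 13141 genes had a higher stroke ratio in stem-like than in myeloid-primed cells (8.13%) and 733 a lower one (5.58%), 13.7% in all. The difference of the stroke ratios did not pass for Pim1 and Junb (-0.30, adjusted p = 0.0959, and -0.11, adjusted p = 0.728), nor for Socs3 (0.05, adjusted p = 0.982). Cxcr4 (1.09), Ly6a (1.54) and Sox4 (1.23) had higher stroke ratios in stem-like cells. Sox4 stood at 290.4 and 566 CPM in stem-like cells of aged and young mice after stroke, against 322 and 529 CPM at steady state. In myeloid-primed cells it stood at 68.0 and 85.0 CPM after stroke, against 154 and 203 CPM at steady state. Mt1 differed the other way (-1.52, adjusted p = 4.97e-23), and its stroke log2 fold change in myeloid-primed cells was 2.05.

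The rule found next to no cell in blood. In each of the aged and young blood libraries at steady state 3 cells met it, 0.0562% and 0.148% of the cells, which equals the share that a count of 3 stands for. Those 6 cells had 0 UMIs of Hlf, Mecom, Procr, Meis1, Kit and Cd34, and they entered through Adgrg1 and Mllt3. The young blood cells among them carried 143 UMIs of Gzma and 29 of Nkg7, genes of cytotoxic lymphocytes.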

How the data were processed

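The deposited tables hold raw counts, 1 UMI count per gene and cell, made by the authors on GRCm38. The submitters' processing notes name featureCounts 1.6.4 of Subread, the aligner STAR 2.5.3a, UMI-tools and Cell Ranger 3.0.2, in no order of steps. From these counts, UMIs of stem-like and of myeloid-primed cells were summed per library. The quasi-likelihood test of edgeR 4.0.16 (R 4.3.3, limma 3.58.1) was run after a filter on low counts and TMM scaling, with age and context as terms over 4 marrow libraries and Benjamini-Hochberg adjustment over all genes at 0.05. The test of both classes had the library as a block. Each group is 1 library, so no p-value measures variation between animals. The fit of age and context set an effect against how it varied between contexts or ages, pooled with a spread shared over genes. It had 1 residual and 4.74 prior degrees of freedom. In the test of both classes the prior degrees of freedom were infinite, so its p-values rest on the shared spread alone. The files held 0 other columns of samples. DESeq2 1.42.0 was an alternative. Shares used Python 3.11.15, numpy 2.4.6, scipy 1.17.1 and pandas 2.3.3, with cells thinned to 3000 UMIs, or to 5000 for shares of marrow. Cells below the depth of thinning were left out. Doublets were scored against simulated ones with scikit-learn 1.9.0, and cells above 0.25 were left out in an alternative only. Shared 3′ sequence means 31-base words of the last 300 bases of a GENCODE transcript found in another gene. Figures were drawn with matplotlib 3.10.9.

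The genes named are, for age and stroke, the 12 largest changes per direction among genes that passed, with a mean of at least 20 CPM and the same sign in both pairs of libraries. Where under 8 passed, those with the smallest p were added and given as not passed. The others are members of the lists described, at most 6 that passed and the 4 most abundant, and the 5 smallest p per direction between classes. Vwf, Cldn5, Gpr183, Cpne8, Gm10419, Jchain, Mt2, Flt3, Satb1, Sult1a1 for stroke, Dnmt3b, Socs3 for age and the genes compared between classes beyond those 5 lie outside the rule and were chosen after their values were seen. Members and lists were chosen with earlier results of these data known. On simulated data with 200 changed genes of 12150, 59% of 2-fold and 94.5% of 4-fold age changes were called, and 67% and 87% of stroke changes. The simulated counts took their spread from the trend over genes, with no spread of single genes around it. The data have such spread, so these shares can lie above those that hold for the data, which was not tested. Intervals and floors cover counting error only. Some genes that the naming rule or a list would name are not reported here.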

Additional observations from a re-analysis of the deposited data

Results flagged for a closer look

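The following genes had the smallest p for a difference between stem-like and myeloid-primed progenitors in their age or stroke ratio, in edgeR's quasi-likelihood test with the library as a block. Each value is the log2 ratio in stem-like cells minus that in myeloid-primed cells.

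For age, 5 genes had higher ratios in stem-like cells. Jchain differed by 6.96, with -0.07 after stroke and 7.10 at steady state. Igkc differed by 5.05, with -3.05 after stroke and 7.08 at steady state, so its sign was opposite in the contexts. The neutrophil genes S100a9, S100a8 and Camp differed by 2.18, 1.96 and 2.16, with 4.38, 3.91 and 4.80 after stroke and 0.08, 0.09 and 0.07 at steady state. With a robust estimate of the spread, Igkc (adjusted p = 0.947), S100a9 (0.963), S100a8 (0.961) and Camp (0.964) no longer passed, and Jchain did. Lower ratios in stem-like cells were found for Ccl5 (-1.72), Ube2c (-0.92), Top2a (-0.88), H2afy (-0.75) and Plac8 (-0.69), each below 0 in both contexts.

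For stroke, Cd74 (2.84), Irf8 (2.07), mt-Rnr2 (1.70) and Gm42418 (1.28) had higher ratios in stem-like cells at both ages. Ighm differed by 2.22, with 0.65 in aged and 3.67 in young mice (robust adjusted p = 0.659). Lower ratios were found for Camp (-2.87), S100a9 (-2.44), Ngp (-2.40), S100a8 (-2.19) and Wfdc21 (-1.98), with -0.80 to -0.35 in aged and -5.53 to -4.17 in young mice, and robust adjusted p from 0.713 to 0.736.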

How the results depend on the processing

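No paired analysis was possible because the labels give the 4 marrow groups, of 1 library each, no shared replicate numbers. Leaving out a library leaves no residual degrees of freedom, so the ratios of single pairs stand in its place. The 20 genes called by age kept their direction in each of 16 alternatives in which they were tested, but their number did not. With at least 6 UMIs of the 6 genes there were 157 calls, with 3 CP10k as well 98, without doublets 268, at a mitochondrial limit of 5% 126, thinned 93, without dividing cells 268, with Hlf, Adgrg1 and Meis1 alone 66, without Flt3 or Dntt cells 64, without the neutrophil-rich 10% of cells 196, with robust spread 32, with DESeq2 size factors 11, without scaling 194, without shared 3′ sequence 47, without the filter 714, with DESeq2's test 40, and without context as a term 0 by edgeR (366 at an unadjusted p below 0.05). The settings on Hlf, Adgrg1 and Meis1 alone, Flt3 or Dntt cells, neutrophil-rich cells, shared 3′ sequence, no scaling and robust spread were chosen after seeing the data. The prior degrees of freedom of the spread were 4.74 in the reported fit, 10.2 without doublets and 27.2 without dividing cells, and their part in the counts was not tested. The setting without Flt3 or Dntt cells left 20 of the 98 stem-like cells of the young library after stroke. Against 2027 calls for stroke, there were 926 thinned, 1192 without dividing cells, 1062 without Flt3 or Dntt cells, 5786 without scaling, 794 without shared 3′ sequence, 3511 without the filter and 813 by DESeq2. Against 244 calls between classes for age, there were 40 thinned, 126 without shared sequence and 0 without the other factor (267 unadjusted), and against 1802 for stroke 213, 958 and 597. The causes were not tested.

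Shares of stem-like cells in aged and young mice after stroke and aged and young mice at steady state were 6.48%, 3.05%, 9.91% and 4.54% with at least 6 UMIs, 5.66%, 3.42%, 7.70% and 3.43% thinned, and 54.4%, 65.8%, 35.5% and 22.4% of both classes. With 3 CP10k the young share after stroke was 3.36%. Dividing shares were 52.2%, 66.3%, 56.8% and 61.5% unthinned, and 39.7%, 54.6%, 64.0% and 72.0% for 1 UMI.

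Signs that turned, none passed except Ighm without Flt3 or Dntt cells: for age, Adgrg1 (-0.0019), Ighm (0.13) and Kit (-0.036) with 6 UMIs; Ighm (0.85), Kit (-0.15), Meis1 (0.061) and Rap1b (-0.16) without dividing cells; Birc5 (0.064), Bst2 (0.13), Ighm (3.54), Lmo2 (0.17), Mef2c (0.32), Mki67 (0.051), Ube2c (0.049) and Wfdc17 (0.47) without Flt3 or Dntt cells; Camp (-0.034) and Lmo2 (0.028) without the neutrophil-rich 10% of cells; and Ighm (0.20) without context. For stroke they were Mecom (0.18) and Procr (0.21) with 3 CP10k, Mecom (0.017), Procr (0.13) and Myc (-0.0018) thinned, Mecom (0.073), Mt1 (-0.14) and Nfkbia (-0.13) without dividing cells, Mecom (0.017) without Flt3 or Dntt cells, and Mt1 (-0.038), Myc (-0.23), Nfkbia (-0.22), Sod2 (-0.024) and Stat3 (-0.37) without scaling.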
